A study of Mus musculus with 9 samples.

Results

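The 10 genes Hk1, Hk2, Gpi1, Pfkp, Pfkm, Aldoa, Tpi1, Pgk1, Eno1 and Ldha encode enzymes of glycolysis and were chosen by gene name from the 57180 genes of the deposited table. The 10 names matched 11 rows. A second row named Aldoa (ENSMUSG00000114515) held 31.1 to 57.7 normalized counts and was not counted as the member. All 10 members reached the minimum for testing, a mean normalized count of 10 over the libraries, as did 17036 genes in all. The RNA came from whole hippocampus of 11-day-old C57BL6 mice. In 4 mice Slc38a3, which encodes the glutamine transporter SNAT3, was knocked out selectively in endothelial cells (cKO), and 5 mice were wild type (WT). The cKO group held 3 males (replicates 1, 3 and 4) and 1 female (replicate 2), and the WT group 1 male (replicate 1) and 4 females (replicates 2 to 5). The sources used here do not name the Cre driver, the deleted exons or the litters.

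Glycolysis splits glucose into pyruvate in the cytosol and yields ATP and NADH. Hexokinases trap glucose as glucose 6-phosphate, phosphofructokinase makes the committed step, and lactate dehydrogenase turns pyruvate into lactate and restores NAD+. In the brain, astrocytes and endothelial cells are known for a high glycolytic rate, and lactate can pass between cell types. Many of these genes are textbook targets of the hypoxia-inducible factors (HIF), which bind DNA at the cores ACGTG and GCGTG.

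The promoters of Ldha, Pgk1 and Hk2 are shown because these 3 members had the smallest p-values between the genotypes, and that of Tpi1 because its groups did not overlap either. Each runs from 250 bases before to 50 bases after a start site annotated by RefSeq (GRCm38.p6), 5′ to 3′ on the gene's strand. Capitals mark ACGTG and GCGTG on either strand, so that CACGT and CACGC are the same cores read from the other strand. CACGTG holds ACGTG on both strands.
Ldha, chr7:46845554-46845853, plus strand: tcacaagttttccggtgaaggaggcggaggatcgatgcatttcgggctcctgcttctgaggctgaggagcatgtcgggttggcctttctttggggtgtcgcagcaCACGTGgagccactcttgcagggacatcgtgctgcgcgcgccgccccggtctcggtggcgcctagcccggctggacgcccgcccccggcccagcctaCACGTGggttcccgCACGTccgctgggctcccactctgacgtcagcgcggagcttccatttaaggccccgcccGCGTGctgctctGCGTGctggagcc
Pgk1, chrX:106186850-106187149, plus strand: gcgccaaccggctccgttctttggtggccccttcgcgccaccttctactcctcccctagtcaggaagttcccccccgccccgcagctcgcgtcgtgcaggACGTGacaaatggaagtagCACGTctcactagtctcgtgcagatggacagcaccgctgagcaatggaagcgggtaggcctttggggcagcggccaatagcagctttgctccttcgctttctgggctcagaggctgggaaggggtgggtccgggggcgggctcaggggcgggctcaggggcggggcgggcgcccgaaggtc
Hk2, chr6:82774405-82774704, minus strand: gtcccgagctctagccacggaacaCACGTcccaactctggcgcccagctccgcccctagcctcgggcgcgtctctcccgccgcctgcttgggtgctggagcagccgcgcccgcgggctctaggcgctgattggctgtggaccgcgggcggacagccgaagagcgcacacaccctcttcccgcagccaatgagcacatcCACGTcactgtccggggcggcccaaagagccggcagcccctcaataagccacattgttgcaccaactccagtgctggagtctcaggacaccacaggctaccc
Tpi1, chr6:124814109-124814408, minus strand: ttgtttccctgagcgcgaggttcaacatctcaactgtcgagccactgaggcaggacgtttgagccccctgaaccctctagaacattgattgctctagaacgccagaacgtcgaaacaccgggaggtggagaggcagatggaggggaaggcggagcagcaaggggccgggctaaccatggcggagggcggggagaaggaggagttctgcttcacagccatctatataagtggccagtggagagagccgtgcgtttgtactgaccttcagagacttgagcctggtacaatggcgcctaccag

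RefSeq lists 2 windows for Ldha, of which the first is printed. It held CACGTG starting 145 and 48 bases upstream of the start site, CACGT starting 34 bases upstream, and GCGTG starting 25 and 37 bases downstream. The second Ldha window, chr7:46846832-46847131, held 0 ACGTG and 0 CACGTG, and 2 GCGTG cores, at 59 bases upstream (read as CACGC) and 40 bases downstream. The Pgk1 window held ACGTG 150 bases and CACGT 131 bases upstream. The Hk2 window held CACGT 226 and 52 bases upstream. These letters do not occur in the Tpi1 window. RefSeq listed 19 windows for the 10 members, of which 14 windows, of 8 members, held either core. The windows of Gpi1 and Tpi1 did not hold them. Of 32851 promoter windows of the same length, 43.77% held either core, 19.62% held ACGTG, 32.39% held GCGTG and 7.15% held CACGTG. These are shares of single windows, unlike the count of members, where a match in any window was enough. Windows 2 and 3 overlap in Eno1, Aldoa and Pfkm, so that some matches were counted in both. The 32851 windows were not matched to those of the members for base content, so the shares are no measure of enrichment. A match describes the letters in these windows and was not tested for binding.

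**Figure D1:**
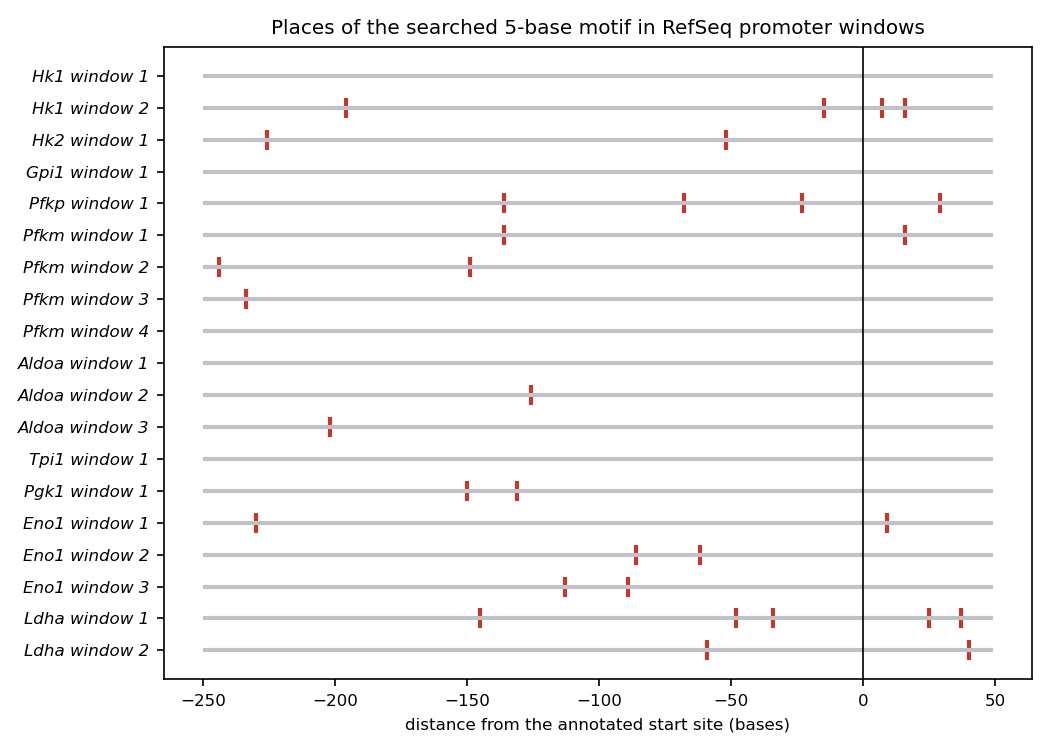
Places of ACGTG or GCGTG, on either strand, in the 19 RefSeq promoter windows of the 10 members. The horizontal axis is the distance in bases from the annotated start site (vertical line), each grey line is a window of 300 bases, and red marks are the matches. Ldha window 1 holds 5 separate matches, and the windows of Gpi1 and Tpi1 hold none.

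Recovered reads numbered 30803135 to 34034530 per library. The targeted gene Slc38a3 fell 7.97-fold, with 379.8, 405, 308 and 310.2 normalized counts in cKO replicates 1 to 4 and 3392, 2033, 3514, 3363 and 1804 in WT replicates 1 to 5 (log2 fold change -2.99 ± 0.221 (SE), limma adjusted p = 5.54e-05). Normalized counts are gene counts after division by the size factor of the library, so they are comparable between libraries but not between genes of different length. The summed normalized counts were lower in every cKO library (31915300 to 32349500) than in every WT library (32404500 to 33123100). Summed markers of hippocampal neurons were also lower in every cKO library (276758 to 300926) than in every WT library (302373 to 321599), as were those of microglia (9076 to 10176 and 10332 to 10945). This order was not particular to cell type markers. The sums of cytosolic NADH shuttle genes (53156 to 55555 and 56216 to 57977), glucose and lactate transport genes and HIF genes held it too. Abundant genes weigh most in a sum. Singly, 1 of 16 neuronal and 3 of 10 microglia markers held this order, beside 3.72% of all genes. None of the 8 marker lists had a member at 0 in every library. The summed markers of astrocytes, endothelial cells, meningeal cells, red blood cells, oligodendrocytes and choroid plexus overlapped between the genotypes, and choroid plexus markers ranged from 564 to 32921 in cKO and from 583 to 43558 in WT. The part of these differences in the results that follow was not tested.

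None of the 10 glycolytic enzymes passed in cKO against WT (limma, Benjamini-Hochberg adjusted p under 0.05 over all 17036 genes, sex as a term), where 59 genes passed, 0.346% of those tested. Ldha came nearest, at 1.13-fold lower in cKO with an adjusted p of 0.0568, and ranked 62 of all genes by p. At an unadjusted limma p under 0.05 there were 3 of 10 members, Ldha and Pgk1 lower and Hk2 higher in cKO, beside 11.3% of all genes. Ldha, Pgk1 and Tpi1 were lower in every cKO library than in every WT library, an order found in 3.72% of all genes. Hk2 was higher in every cKO library, an order found in 2.58% of all genes. edgeR's quasi-likelihood test passed 0 members and 57 of all genes. DESeq2 passed 1 member, Ldha, and 200 of all genes. The log2 fold change was below 0 for 7 of 10 members, with a median of -0.06, and for 51.2% of all genes tested, with a median of -0.0034. In whole tissue, fewer cells of a type and less RNA per cell cannot be told apart.

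**Figure D2:**
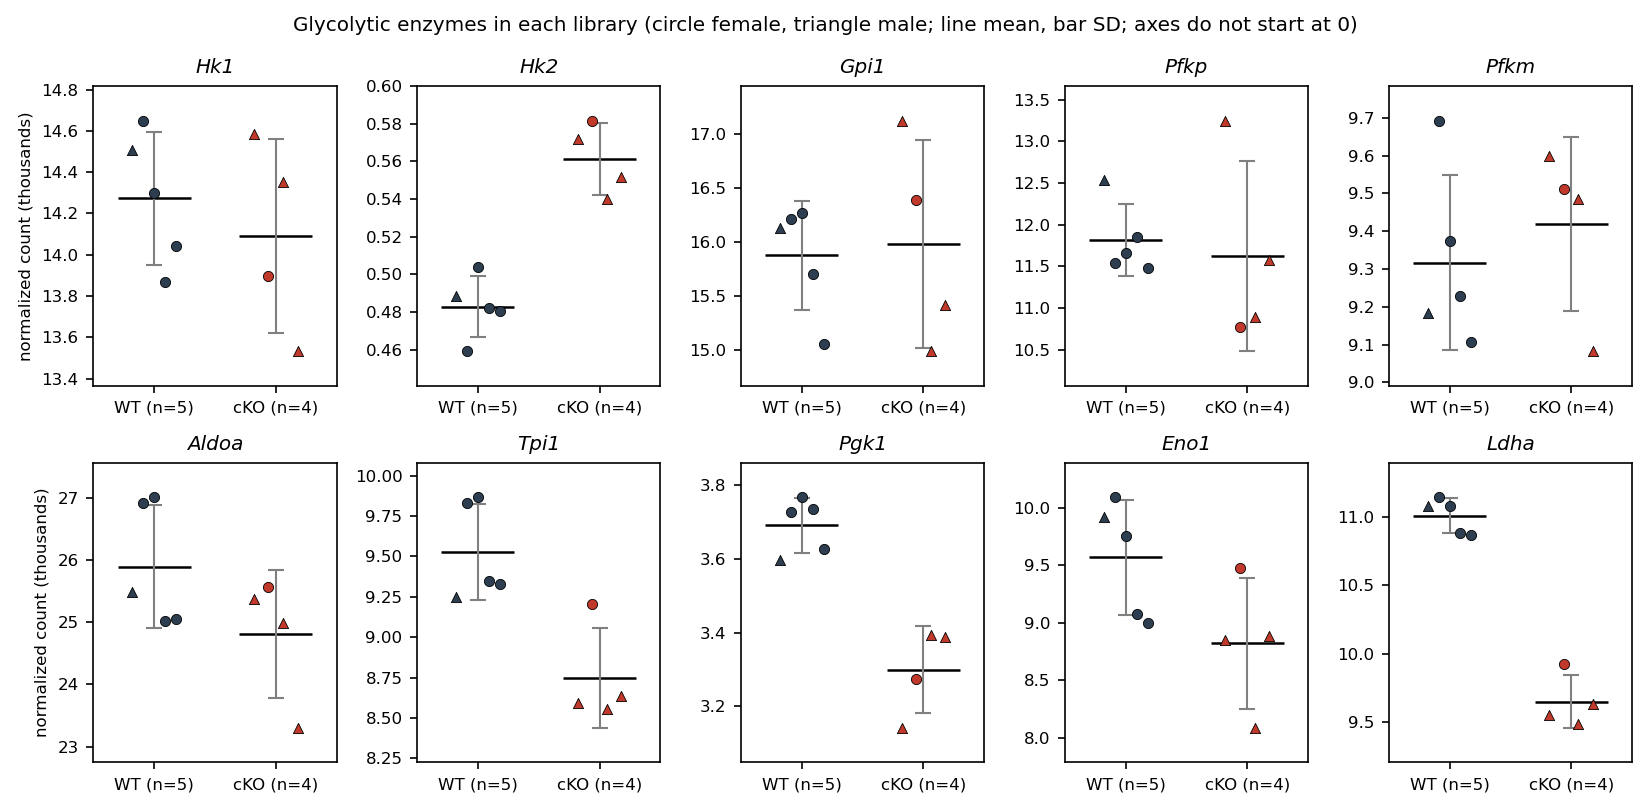
Normalized counts (axis in units of 1000) of the 10 glycolytic enzymes in each library, WT in blue (n = 5) and cKO in red (n = 4), circles for females and triangles for males, with the group mean (line) and SD (bar). Each panel has its own axis, which does not start at 0. The groups are apart for Hk2, Tpi1, Pgk1 and Ldha and overlap for the other 6 genes.

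The first step of the pathway is carried out by hexokinases, of which Hk1 is the main form in brain and Hk2 the inducible form of muscle, fat and many tumours. Hk1 (ENSMUSG00000037012, GRCm39 chromosome 10, 62104633 to 62215687) had a mean normalized count of 14092 ± 470 in the 4 cKO and 14273 ± 323 in the 5 WT libraries (mean ± SD, as for all means given here). Its ranges, 13532 to 14586 and 13866 to 14650, overlapped over most of their length (log2 fold change -0.03 ± 0.0403 (SE), adjusted p = 0.787). The 95% interval of the Hk1 difference ran from -0.12 to 0.05 on the log2 scale.

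Hk2 (ENSMUSG00000000628, chromosome 6, 82702005 to 82751435) held 572, 582, 539.9 and 552 normalized counts in cKO replicates 1 to 4. In WT replicates 1 to 5 it held 489, 459, 504, 482 and 481. The lowest cKO library thus lay above the highest WT library. The female cKO library was the highest of all 9. The same order within each sex follows from the lack of overlap and is no separate check. The modelled difference was 1.17-fold (log2 0.23 ± 0.0654, 95% interval 0.09 to 0.37, limma adjusted p = 0.200).

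Glucose 6-phosphate isomerase, which makes fructose 6-phosphate, is encoded by Gpi1 (ENSMUSG00000036427, chromosome 7, 33900754 to 33929761). Gpi1 averaged 15981 ± 962 normalized counts in cKO and 15875 ± 508 in WT (log2 fold change 0.01 ± 0.0514, adjusted p = 0.944). cKO replicate 1 held the highest value, 17124, and cKO replicate 3 the lowest, 14988, so that the cKO libraries spanned the whole WT range.

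Phosphofructokinase, the main point of control of the pathway, is a tetramer of the platelet-type (Pfkp), muscle-type (Pfkm) and liver-type (Pfkl) subunits. Pfkp (ENSMUSG00000021196, chromosome 13, 6629803 to 6698813) was at 11621 ± 1141 normalized counts in cKO and 11816 ± 430 in WT (log2 fold change -0.10 ± 0.0568, adjusted p = 0.546). The highest cKO library, replicate 1 at 13249, and the highest WT library, replicate 1 at 12541, were both male. The lowest of all 9 was the cKO female at 10773, but the male cKO replicate 3 lay close to it at 10888.5. Pfkm (ENSMUSG00000033065, chromosome 15, 97990469 to 98030332) was at 9420 ± 230 in cKO and 9317 ± 231 in WT (log2 fold change 0.03 ± 0.0390, adjusted p = 0.821). The Pfkm ranges, 9082 to 9599.5 and 9106 to 9692, overlapped over most of their length.

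Aldolase A, which splits the 6-carbon sugar, and triose phosphate isomerase, which interconverts its products, follow. Aldoa (ENSMUSG00000030695, chromosome 7, 126394405 to 126399923) was at 24808 ± 1031 normalized counts in cKO and 25894 ± 993 in WT (log2 fold change -0.04 ± 0.0468, adjusted p = 0.793). cKO replicate 4 was the lowest Aldoa library at 23304, and the other 3 cKO libraries, 24990 to 25564, lay within or just below the WT range of 25013 to 27009. Tpi1 (ENSMUSG00000023456, chromosome 6, 124787548 to 124791259) held 8591, 9208, 8556 and 8634 in cKO replicates 1 to 4 and 9250.4, 9832.5, 9868, 9351 and 9328 in WT replicates 1 to 5. The groups did not overlap for Tpi1, but the cKO female lay close to the WT male, the lowest WT library. With sex as a term the Tpi1 difference was 1.06-fold lower (log2 -0.08 ± 0.0383, 95% interval -0.16 to 0.0007, adjusted p = 0.443), beside group means 8.17% apart.

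Phosphoglycerate kinase makes the first ATP of the pathway, and its gene Pgk1 lies on the X chromosome (ENSMUSG00000062070, 105230705 to 105247305). Pgk1 held 3142, 3276, 3394 and 3388 normalized counts in cKO replicates 1 to 4 and 3598, 3728, 3768, 3737 and 3627 in WT replicates 1 to 5. All 4 cKO libraries lay below all 5 WT libraries, so that the same order within each sex was given and is no separate check. The modelled Pgk1 difference was 1.11-fold lower (log2 -0.15 ± 0.0428, 95% interval -0.24 to -0.06, limma adjusted p = 0.190). Without a sex term the adjusted p of Pgk1 was 0.0388.

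Eno1 (ENSMUSG00000063524, chromosome 4, 150321177 to 150333336) encodes enolase 1, which makes phosphoenolpyruvate. It held 8846, 9473, 8086 and 8883 normalized counts in cKO replicates 1 to 4 and 9917, 10093, 9754, 9073 and 9001 in WT replicates 1 to 5. The cKO female lay inside the WT range, while the 3 cKO males lay below it. The Eno1 difference was -0.10 ± 0.0586 on the log2 scale (adjusted p = 0.545), with 0.0006 ± 0.0674 in females alone and -0.206 ± 0.0735 in males alone (limma adjusted p = 0.998 and 0.726).

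Ldha (ENSMUSG00000063229, chromosome 7, 46490898 to 46505051) encodes the A subunit of lactate dehydrogenase, known as the form that favours lactate production. It held 9555, 9924, 9487.5 and 9632 normalized counts in cKO replicates 1 to 4. In WT replicates 1 to 5 it held 11080.3, 11147, 11081, 10882 and 10871.5. Every cKO library was below every WT library, with group means of 9649.5 ± 192 and 11012 ± 127, a difference of 12.4%. For Ldha too, the same order within each sex follows from the lack of overlap. The modelled difference was -0.18 ± 0.0357 on the log2 scale (95% interval -0.26 to -0.10, limma adjusted p = 0.0568). Over 20 alternatives the Ldha difference stayed between -0.21 and -0.15, with adjusted p-values from 0.00048 to 0.587. It passed in 3 of them, with DESeq2 (adjusted p = 0.00048), without a sex term (0.00715) and with a minimum mean of 50 (0.0464).

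**Figure D3:**
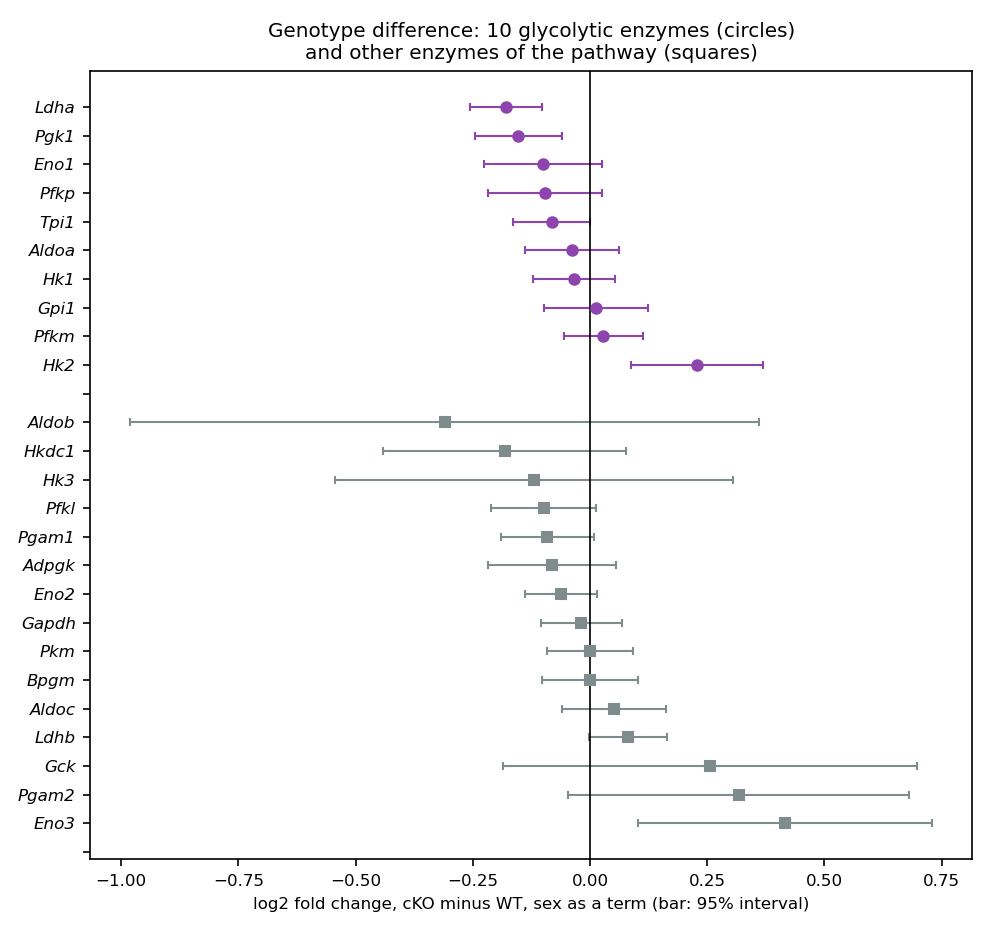
Modelled log2 fold change, cKO minus WT with sex as a term, and its 95% interval for the 10 glycolytic enzymes (purple circles) and the 15 other enzymes of the pathway that were tested (grey squares). The intervals of Ldha and Pgk1 lie below 0 and those of Hk2 and Eno3 above 0, and no gene shown passed the adjusted threshold.

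The rest of the pathway was taken from a list of 20 other glycolytic enzymes, of which 15 were tested. None passed, and 1 had an unadjusted limma p under 0.05 (higher), beside 11.3% of all genes, with a median log2 fold change of -0.02 over the list. Gapdh, the dehydrogenase before Pgk1 in the pathway, was at 14562 ± 571 normalized counts in cKO and 15056 ± 377 in WT (log2 -0.02 ± 0.0402, adjusted p = 0.895). Pkm, which makes pyruvate, differed by -0.0003 ± 0.0428 on the log2 scale (adjusted p = 0.998), and Pgam1, the mutase between Pgk1 and Eno1, by -0.09 ± 0.0462 (adjusted p = 0.472). Gapdh, Pgam1 and Pkm each overlapped between the genotypes, as did the members Hk1, Gpi1, Pfkp, Pfkm, Aldoa and Eno1. The members Ldha, Pgk1, Tpi1 and Hk2 did not. Overlap takes no account of sex, and the modelled Tpi1 difference (-0.08 ± 0.0383) was no larger than that of Pgam1. Eno3, the muscle enolase, was at 144 ± 24.7 in cKO and 108 ± 6.88 in WT (log2 0.42 ± 0.146, adjusted p = 0.306), without overlap.

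Members that share a step with another gene were also compared as ratios within a library, which do not depend on scaling. In 6 pairs, a two-sided exact permutation test over all 126 arrangements of the libraries had no sex term and could reach p = 0.00794 at the least. The pairs were chosen with earlier results of these data known. Ldha and Hk2 were already without overlap singly, so the small p-values of their ratios are no separate check. How often other pairs of genes reach such p-values was not tested. The ratio of Ldha to Ldhb, the B subunit known as the form that favours pyruvate, was 1.95, 1.84, 1.90 and 1.97 in cKO replicates 1 to 4 and 2.30, 2.198, 2.27, 2.19 and 2.23 in WT replicates 1 to 5. The groups did not overlap, with 1.91 ± 0.0599 in cKO and 2.24 ± 0.0483 in WT, 1.17-fold lower (exact permutation p = 0.00794, adjusted over the 6 ratios 0.0238). Without overlap, the same order within each sex was given and is no separate check. Ldhb itself was at 5047 ± 241 normalized counts in cKO and 4922 ± 101 in WT (log2 0.08 ± 0.0387, limma adjusted p = 0.448).

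The ratio of Hk2 to Hk1 was 0.0399 ± 0.00185 in cKO and 0.0338 ± 0.00152 in WT, 1.18-fold higher without overlap (exact permutation p = 0.00794, adjusted over the 6 ratios 0.0238). The cKO female was at 0.0419 and the WT females at 0.0313 to 0.0352. The cKO males were at 0.0376 to 0.0408 and the WT male at 0.0337, an order that follows from the lack of overlap. The ratio of Pfkm to Pfkl was 2.27 ± 0.138 in cKO and 2.03 ± 0.0650 in WT, 1.11-fold higher without overlap (exact permutation p = 0.0159, adjusted 0.0317). Here the cKO female, at 2.16, lay just above the highest WT female at 2.13. The cKO males were at 2.18 to 2.46 and the WT male at 2.05, an order that likewise follows from the lack of overlap. Pfkl was at 4161 ± 228 normalized counts in cKO and 4586 ± 225 in WT (log2 -0.10 ± 0.0519, limma adjusted p = 0.489). The ratios of Pfkp to Pfkm (exact permutation p = 0.516), Aldoa to Aldoc (0.619) and Eno1 to Eno2 (0.683) overlapped between the genotypes, each with an adjusted p of 0.683. Aldoc, the astrocyte-enriched aldolase, differed by 0.05 ± 0.0514 (limma adjusted p = 0.741) and Eno2, the neuronal enolase, by -0.06 ± 0.0354 (0.529) on the log2 scale.

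**Figure D4:**
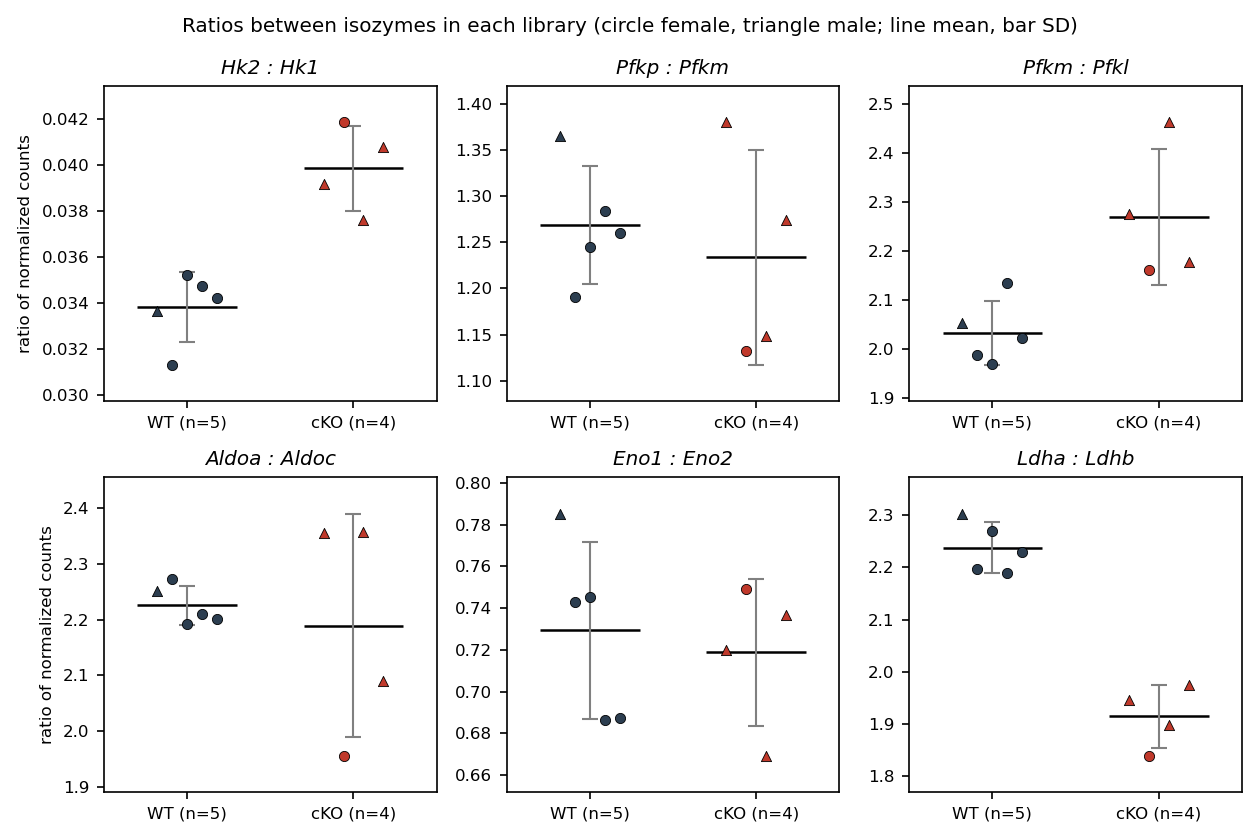
Ratios of normalized counts of genes that share a step, in each library, WT in blue (n = 5) and cKO in red (n = 4), circles for females and triangles for males, with the group mean (line) and SD (bar). Axes differ between panels and do not start at 0. The groups are apart for Hk2 to Hk1, Pfkm to Pfkl and Ldha to Ldhb and overlap for the other 3 ratios.

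Between the sexes, 0 of 10 members passed in the same limma fit, where 9 genes passed, 0.0528% of those tested. Pfkp had the smallest limma p of the members (female minus male -0.12 ± 0.0568 on the log2 scale, adjusted p = 0.740). Tpi1 followed at 0.08 ± 0.0383 (adjusted p = 0.740) and Aldoa at 0.04 ± 0.0468 (adjusted p = 0.875). edgeR and DESeq2 passed 0 members between the sexes. Pgk1, the X-linked member, differed by 0.02 ± 0.0428 (adjusted p = 0.951), with a 95% interval from -0.07 to 0.11. The genotype difference did not pass as unequal between the sexes for any of the 10 members in limma, edgeR or DESeq2. In limma 0.00587% of all genes passed for this interaction. The smallest p-values were those of Eno1 (interaction 0.21 ± 0.104, adjusted p = 0.636), Ldha (0.07 ± 0.0682, adjusted p = 0.809) and Gpi1 (0.08 ± 0.102, adjusted p = 0.850). This comparison rests on 1 cKO female and 1 WT male.

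Levels were compared between the enzymes per kilobase of exon (GENCODE vM21 exon lengths). The length is the union of all annotated exons of a gene, not that of 1 transcript. It is 5379 bases for Eno1 and 3310 for Ldha, whose longest protein-coding transcripts have 2027 and 1815 bases. The order that follows holds for this length only and can change with another. In WT, Aldoa was the highest at 8895 ± 341 normalized counts per kilobase (SD, n = 5), then Tpi1 at 3460 ± 108, Ldha at 3327 ± 38.3, Pfkm at 2789 ± 69.3 and Gpi1 at 2460 ± 78.8. Lower levels per kilobase were those of Eno1 at 1779 ± 92.9, Hk1 at 1673 ± 37.8, Pgk1 at 1645 ± 33.2 and Pfkp at 882 ± 32.1, and Hk2 was the lowest at 80.9 ± 2.699. The ranges pooled over all 9 libraries overlapped for the neighbours Tpi1 and Ldha, Ldha and Pfkm, Eno1 and Hk1, and Hk1 and Pgk1. The other neighbours did not overlap. Pooled ranges do not compare 2 genes within a library, so their overlap does not mean that the order changed within any library. Summed, the 10 genes held 107001 ± 3150 normalized counts in cKO and 111454 ± 2730 in WT, which is 0.333% ± 0.0112 and 0.340% ± 0.0106 of each library, with overlapping ranges. No library was extreme for all members. cKO replicate 3 was the lowest library for Gpi1, Tpi1, Eno1 and Ldha, and cKO replicate 4 for Hk1, Pfkm and Aldoa. WT replicate 2 was the highest for Hk1, Pfkm, Eno1 and Ldha. The median coefficient of variation of the 9 members with a mean of at least 1000 was 3.13% in WT and 3.59% in cKO, beside 3.92% and 4.85% over the 6560 genes at that level.

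Processed pseudogenes and other near-identical copies (at least 90% identity over at least 300 aligned bases) were found for Gpi1, Aldoa, Tpi1, Pgk1, Eno1 and Ldha. Ldha had 13, the most, and their summed mean was 9.97 normalized counts, 0.0958% of that of Ldha. For the other members the copies held smaller shares of the member's mean, down to 0 for Hk1, Hk2, Pfkp and Pfkm, which had none. The sources used here do not say how reads matching several places were counted. Aldoa overlaps Tlcd3b (mean 4540.0 normalized counts), Pfkp overlaps Pitrm1 (1340.0) and Pfkm overlaps Senp1 (620.4), and without a stated strand setting their reads cannot be told apart. Hk1, Hk2 and Tpi1 overlap genes with means of at most 54.9. No overlapping gene was found for Ldha, Pgk1, Gpi1 or Eno1.

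Genes around the pathway were described by list, with counts at an unadjusted limma p under 0.05 to be read beside 11.3% of all genes. Of 11 genes of glucose and lactate transport, 0 passed and 3 had an unadjusted limma p under 0.05 (1 higher and 2 lower, median log2 fold change -0.03). The insulin-responsive glucose transporter gene Slc2a4 was at 58.0 ± 6.55 normalized counts in cKO and 34.7 ± 5.56 in WT (log2 0.75 ± 0.205, adjusted p = 0.175). Slc16a7, which encodes the lactate and pyruvate carrier MCT2 of neurons, was at 3489 ± 356 and 4304 ± 444 (log2 -0.33 ± 0.0925, adjusted p = 0.189). Of 18 genes that control the flux or the entry of pyruvate into mitochondria, 0 passed. An unadjusted limma p under 0.05 was found for 4 of them, 2 higher and 2 lower. The 2 lower genes had the smallest p, Tigar, a fructose bisphosphatase, at -0.17 ± 0.0657 (adjusted p = 0.341) and the pyruvate dehydrogenase kinase gene Pdk3 at -0.15 ± 0.0592 (adjusted p = 0.371).

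Of 10 genes of the shuttles that carry cytosolic NADH to mitochondria, and so share NADH with lactate dehydrogenase, 0 passed. At an unadjusted limma p under 0.05 there were 3, all lower (median -0.05), beside 11.3% of all genes. Gpd2, the mitochondrial glycerol phosphate dehydrogenase, was at 7353 ± 254 normalized counts in cKO and 8127 ± 189 in WT without overlap (log2 -0.15 ± 0.0414, adjusted p = 0.186), and the transaminase gene Got1 at -0.08 ± 0.0366 (adjusted p = 0.411). Of 8 pentose phosphate genes 0 passed, with 1 at an unadjusted p under 0.05 (median -0.02; H6pd -0.19 ± 0.0868, adjusted p = 0.429; Rpe -0.12 ± 0.0626, adjusted p = 0.480). Of 13 tested genes of glycogen metabolism and gluconeogenesis 0 passed, and 0 had an unadjusted limma p under 0.05 (median 0.02; Ugp2 -0.10 ± 0.0497, adjusted p = 0.452; Pygm 0.12 ± 0.0910, adjusted p = 0.663).

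The HIF list held 25 genes of the pathway and its targets other than glycolytic enzymes, among them Pfkfb3, also counted in the list on flux. Of these, 1 fell, 0 rose and 24 did not pass. An unadjusted limma p under 0.05 was found for 7, 6 lower and 1 higher, beside 11.3% of all genes. The median log2 fold change was -0.09. The gene that fell was Vegfa, the vessel growth factor, from 2208 ± 80.8 normalized counts in WT to 1801 ± 71.7 in cKO without overlap (log2 -0.31 ± 0.0502, adjusted p = 0.0220). Of 5 genes of glucose sensing through Mlx factors 1 rose, Txnip, known as a target of those factors and an inhibitor of glucose uptake (1558 ± 173 in cKO, 1055 ± 216 in WT, log2 0.68 ± 0.128, adjusted p = 0.0420), and 4 did not pass. The Txnip ranges overlapped, 1359 to 1720 in cKO and 913 to 1437 in WT. Set beside these, the members' own differences ran from -0.18 (Ldha) to 0.23 (Hk2) on the log2 scale.

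**Figure D5:**
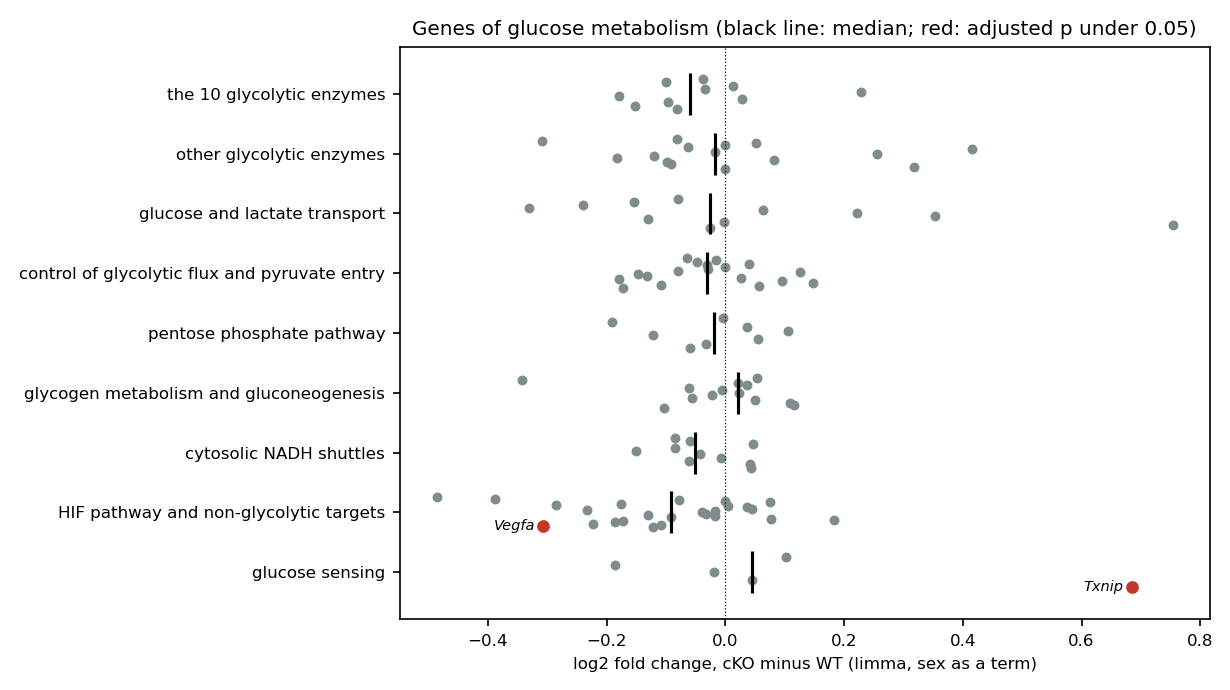
Log2 fold change (cKO minus WT, limma with sex as a term) of each tested gene of the 10 glycolytic enzymes and of 8 lists of glucose metabolism, with the median of each list as a black line. Red points passed at an adjusted p under 0.05, which only Vegfa and Txnip did among the genes shown.

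Of the markers of cell types that could carry these transcripts, 0 of 16 neuronal markers passed (median log2 fold change -0.05), with Bcl11b at -0.16 ± 0.0451 (adjusted p = 0.197) and Snap25 at -0.13 ± 0.0399 (adjusted p = 0.256). Of 12 astrocyte markers Aqp4 fell (adjusted p = 0.00206) and S100b (0.0141) and Gfap (0.0420) rose. Of 12 endothelial markers Flt1 fell (adjusted p = 0.0417). The lists of meningeal cells (0 of 12; Col1a1 adjusted p = 0.129, Col3a1 0.132), red blood cells (0 of 6; Hbb-bs 0.329, Alas2 0.540), microglia (0 of 10; P2ry12 0.0844, Cx3cr1 0.158), oligodendrocytes (0 of 9; Cldn11 0.240, Mag 0.443) and choroid plexus (0 of 6; Kcnj13 0.645, Ttr 0.857) had no passing gene in limma. Unadjusted limma p-values under 0.05, beside 11.3% of all genes, numbered 5 of 12 in the meningeal list (4 higher and 1 lower, median log2 fold change 0.25), 1 of 6 in red blood cells (lower), 3 of 10 in microglia (all lower), 1 of 9 in oligodendrocytes (higher) and 0 of 6 in choroid plexus. They numbered 3 of 16 in neurons (1 higher and 2 lower), 5 of 12 in astrocytes (4 higher and 1 lower) and 3 of 12 in endothelial cells (all lower). Whether the lower Ldha and Pgk1 values lie in the cell types with lower summed markers was not tested.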

How the data were processed

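RNA-seq of whole hippocampus from 9 mice, 4 cKO and 5 WT, was analysed. Per the submitters' processing notes the build was GRCm39 and the tools were STAR 2.7.10b, cutadapt 4.4, DESeq2 1.41.8 and FastQC 0.12.1. Read counter, annotation release and strand setting: not given in the sources used here. The deposited signal values are gene counts that the authors divided by a size factor per library, as the values show. Division by each library's step (0.943 to 1.08) left 100.0% of the values above 0 within 0.1 of a whole read. In WT replicates 1 and 4 and cKO replicate 1 the step is so close to 1 that this recovery is hard to tell from rounding at low values. Groups and sex came from the labels, and replicate numbers follow record order.

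The test was limma-trend (limma 3.58.1, R 4.3.3) on log2(normalized count + 1), and its terms were genotype and sex. It covered the 17036 genes whose mean was 10 or more, at a Benjamini-Hochberg adjusted p under 0.05. Fold changes are on that scale and can differ from ratios of group means. A further fit added the interaction of sex and genotype. Ratios had exact permutation tests. Alternatives were pseudocounts of 0.5 and 5, no filter, a minimum mean of 50, TMM scaling, robust empirical Bayes, omission of the sex term, single-sex fits and omission of each library. DESeq2 1.42.0 and edgeR 4.0.16 were run on the recovered reads. The scripts were tested on simulated data, whose fold changes were larger than those of the members. That test does not cover differences of the members' size. Figures were drawn with matplotlib 3.10.9, and tables read with pandas 2.3.3 and numpy 2.4.6, in Python 3.11.15.

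The members, the 16 other lists, the pairs and the alternatives were chosen with earlier results of these data known. The text names all 10 members and Slc38a3, and of each other list the passing genes (up to 6), or, if none passed, the 2 of smallest p. It also names Gapdh, Pkm, Pgam1, Aldoc, Eno2, Ldhb and Pfkl, which complete the steps of the pathway, and for sex and the interaction the 3 members of smallest p. Overlapping genes and copies are named apart from that rule. 1 listed gene, Gyg1, was not matched to a row. Exon lengths (GENCODE vM21) and promoters (RefSeq, GRCm38.p6) come from another build than the files, and coordinates of the builds were not mixed. The litters are not stated, so p-values reflect only the spread among these 9 samples, which may be technical in part.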

Additional observations from a re-analysis of the deposited data

Results flagged for a closer look

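Within each genotype, the value of each member and each ratio was examined for a library far from the others, 32 groups in all, and 1 stood out. Tpi1 held 9208 normalized counts in cKO replicate 2, the only cKO female, and 8556 to 8634 in the other 3 cKO libraries. The gap to the nearest of these was 0.879 of the whole range of the group, above the critical value of 0.829 for 4 samples. Chance gives such a value in about 1 in 20 groups.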

How the results depend on the processing

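No member passed in 17 of 20 alternatives. Ldha passed with a minimum mean of 50 (1 member) and with DESeq2 (1 member), and Ldha and Pgk1 without a sex term (2 members). Over all genes 59 passed, against 216 without a sex term, 200 with DESeq2, 11 in females alone and 3 in males alone, and 10 to 65 with 1 library left out. The count moved by over 1.5 times without cKO replicate 1 (28), cKO replicate 2 (10), WT replicate 1 (21), WT replicate 2 (29) or WT replicate 5 (30). In each sex alone, 1 genotype has a single library, which is assumed to vary like the others. The sign of the Gpi1 difference (main 0.0135, log2) turned to -0.0282 in males alone and ranged from -0.0282 to 0.0526 with 1 library left out. It was below 0 without cKO replicate 1 (-0.0101) and without cKO replicate 2 (-0.0282). That of Eno1 turned to 0.0006 in females alone and without WT replicate 1, and ranged from -0.206 to 0.0006 with 1 library left out. The log2 ratio of Aldoa to Aldoc ranged from -0.065 to 0.0246 (above 0 without cKO replicate 2). That of Eno1 to Eno2 ranged from -0.0421 to 0.0134 (above 0 without cKO replicate 3, and at 0.0065 without WT replicate 1). The other 8 members kept their sign in all 20 alternatives, and the other 4 ratios kept theirs in 10. TMM scaling moved the median of all genes from -0.0034 to 0.0015. No member passed between the sexes in 17 alternatives or for the interaction in 15. Without cKO replicate 2 or WT replicate 1 the interaction cannot be estimated. The causes were not tested. No paired analysis was possible because the sources used here give no litters or pairs. The replicate numbers follow record order and do not pair the mice. Counts near the minimum mean of 10 limit the low genes of the lists, not the members.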
